A study of Schizosaccharomyces pombe with 12 samples.

Results

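The RNAs described here are the 150 most abundant members of the SPNCRNA series, the systematic identifiers given to non-coding RNA genes of the fission yeast *Schizosaccharomyces pombe*. They were chosen from 1534 SPNCRNA rows in a table of 7004 genes by their mean CPM (the count of a gene for every 1000000 counts of its library) over all 12 libraries, after 12 SPNCRNA genes had been left out. The levels of the 150 RNAs are therefore a description and not a finding. The ranking used the mean over every library and no difference between strains. The 12 RNAs left out, however, were set with earlier results of these data known, so the choice was not blind to strain differences. Of these 12, 7 would have ranked within the 150, and 6 of these 7 changed at least 2-fold between *thc1*Δ and its wild type. The counts of changed RNAs given below are lower for that reason.

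Thc1 and Bmc1 are proteins found with the telomerase RNA, and the libraries compare cells that lack either of them with matched wild types. Thc1 resembles cap-binding proteins and Bmc1 belongs to a family of RNA methyltransferases. The *thc1* WT strain was of mating type h- and carried *his3-D1*, *ura4-D18*, *leu1-32* and *ade6-M216*, and *thc1*Δ was the same strain with *thc1* replaced by *his3*+. The *bmc1* WT strain was h+ and shared *his3-D1*, *ura4-D18* and *leu1-32*, with an *ade6* allele given as M210 or M216, and *bmc1*Δ, obtained from a sporulated diploid, carried *natMX6* in place of *bmc1*. Each of the 4 strains gave 3 libraries from logarithmic cultures grown at 32 °C in rich medium, and each deletion is represented by 1 strain. The *thc1* WT and *bmc1* WT strains differ in mating type and may differ in *ade6*, and the experiment and the strain cannot be told apart in any comparison across them. The study describes the *thc1* libraries as coming from triplicate cultures. For the *bmc1* libraries it does not say so in the sources used here, and their p-values measure the spread between these libraries, which may be technical.

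Long non-coding RNAs of fission yeast are transcribed by RNA polymerase II, capped and often polyadenylated, and many run antisense to a coding gene. Most are kept low by the nuclear exosome, the 3′ to 5′ nuclease that Mtr4 and its relative Mtl1 bring to nuclear RNA, and by nucleosome-restoring factors that silence antisense promoters. The protein Mmi1 sends meiotic transcripts to the exosome during vegetative growth by binding repeats of a short motif, TNAAAC. Some antisense RNAs lie across genes that are used only in meiosis and sporulation.

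The name long non-coding RNA did not hold for every member. Of the 148 members found in the RefSeq annotation of the ASM294v3 genome, 143 were annotated as lncRNA, 4 as snoRNA and 1 as another ncRNA, and SPNCRNA.01 and SPNCRNA.99 were not found there. The 2 highest were structural RNAs with housekeeping roles, mrp1 (SPNCRNA.82), the RNA of the RNase MRP that cuts the ribosomal RNA precursor, and rrk1 (SPNCRNA.128), the RNA of the RNase P that trims the 5′ ends of tRNAs. snoR61, snR191, sno530 and the candidate snoRNA SPNCRNA.498 were small nucleolar RNAs, which guide modification or processing of ribosomal RNA, and SPNCRNA.1483 and snoZ (SPNCRNA.659) were precursors from which such RNAs are cut.

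The following sequences show what shares the SPNCRNA numbering. snR191 and sno530 are printed whole because they are short guide RNAs among transcripts that are mostly longer than a kilobase. The stretch of nam1 (SPNCRNA.1459), a non-coding RNA that represses the neighbouring *byr2* gene, is printed because its 90 bases hold 4 of the 9 copies of TNAAAC in that RNA, and the capitals mark them. All were read 5′ to 3′ from the RefSeq genome ASM294v3, on the minus strand at chrI:2735048-2735175 for snR191, chrI:1966483-1966635 for sno530 and chrII:1742694-1742783 for the stretch of nam1.
snR191: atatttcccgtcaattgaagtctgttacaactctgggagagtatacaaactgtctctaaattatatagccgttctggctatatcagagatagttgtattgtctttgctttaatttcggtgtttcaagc
sno530: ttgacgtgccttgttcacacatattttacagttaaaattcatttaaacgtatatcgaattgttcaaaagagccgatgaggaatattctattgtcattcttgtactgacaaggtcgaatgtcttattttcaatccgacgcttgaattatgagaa
nam1: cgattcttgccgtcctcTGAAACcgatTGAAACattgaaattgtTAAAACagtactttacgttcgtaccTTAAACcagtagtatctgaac
Over its 1489 bases nam1 held 6.04 copies of TNAAAC per kilobase on its own strand, against 1.86 per kilobase over the 148 annotated members together and 2.03 over the other annotated SPNCRNA genes. The motif is thus common in nam1 and not in the members as a group. By density nam1 was not the highest. SPNCRNA.1236, of 615 bases, held 5 copies (8.13 per kilobase), and sno530, of 153 bases, held 1 (6.54 per kilobase).

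The promoters of mrp1, SPNCRNA.935 and SPNCRNA.1063 are shown for the sequence in front of the highest member and of 2 members whose levels differed widely between libraries. Both of these 2 hold the motif TGACGT, described below, whereas the promoters of the more variable SPNCRNA.1318, SPNCRNA.716 and SPNCRNA.322 do not. Whether the motif goes with variable levels was not tested. Each runs from 250 bases before to 50 bases after the annotated start, on the plus strand at chrI:1234201-1234500 for mrp1, the plus strand at chrI:3745528-3745827 for SPNCRNA.935 and the minus strand at chrI:5269924-5270223 for SPNCRNA.1063. Capitals mark TATAAA in mrp1, and TGACGT or its reverse complement in the other two.
mrp1: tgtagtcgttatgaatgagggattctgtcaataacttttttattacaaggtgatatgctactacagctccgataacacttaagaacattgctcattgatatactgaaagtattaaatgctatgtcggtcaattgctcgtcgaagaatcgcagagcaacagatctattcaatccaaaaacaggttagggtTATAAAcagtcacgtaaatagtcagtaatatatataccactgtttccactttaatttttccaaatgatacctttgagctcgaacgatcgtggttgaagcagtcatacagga
SPNCRNA.935: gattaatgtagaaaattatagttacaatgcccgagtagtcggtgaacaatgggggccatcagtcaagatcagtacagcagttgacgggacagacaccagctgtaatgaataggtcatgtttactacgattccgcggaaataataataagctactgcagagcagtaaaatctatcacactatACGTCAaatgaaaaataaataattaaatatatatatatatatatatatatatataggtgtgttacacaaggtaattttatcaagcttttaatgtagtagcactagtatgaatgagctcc
SPNCRNA.1063: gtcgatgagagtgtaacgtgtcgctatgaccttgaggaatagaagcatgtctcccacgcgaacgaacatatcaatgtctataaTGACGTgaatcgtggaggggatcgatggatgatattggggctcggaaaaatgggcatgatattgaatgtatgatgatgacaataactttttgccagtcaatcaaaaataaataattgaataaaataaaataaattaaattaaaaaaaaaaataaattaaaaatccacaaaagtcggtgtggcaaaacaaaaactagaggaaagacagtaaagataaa
Read on both strands, TGACGT, the core of the site bound by Atf1 and related CREB-type factors, was in 16 of 148 member promoters (10.8%), in 7.09% of the promoters of other SPNCRNA genes and in 6.20% of all 6860 promoters of this length. TATAAA was in 70 member promoters (47.3%), in 42.9% of those of other SPNCRNA genes and in 47.5% of all promoters. The ribosomal protein gene element HomolD (CAGTCACA) was in 3 member promoters, the MCB element (ACGCGT) of S-phase genes in 3, the Ste11 site (TTCTTTGTT) in 4 and the FLEX element (GTAAACAAA) of middle meiotic genes in 4. The HomolE element was in 0 member promoters. None of the other motifs was in more than 5.26% of all promoters, and a match describes the letters and not a bound site.

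The 12 libraries held 33565122 to 40328959 counts. *thc1* was lower in *thc1*Δ, at 20.3 ± 0.465 CPM (SD, n = 3) against 50.4 ± 1.74 in its wild type, and *bmc1* in *bmc1*Δ, at 15.9 ± 0.541 against 25.6 ± 0.498. Both targeted genes fell in the libraries labelled as their deletion, but counts remained there. The counts cover whole genes, and the deletions replaced open reading frames. The study checked both deletions by PCR and describes RNA sequencing reads as absent from the deleted loci, for *thc1* over its open reading frame. Where the remaining counts lie was not examined here. The first *thc1*Δ library stood apart from the other two, where chi-square over its degrees of freedom, summed over genes, was 65.4 and 68.9 against them and 20.8 between them. The first libraries of *bmc1* WT and *bmc1*Δ stood apart likewise, at 29.6 to 39.6 against 6.75 and 13.7 between the others. Between the *thc1* WT libraries the values were 2.95 to 6.99, so the spread was unequal between groups set against each other. In bulk RNA fewer cells that hold an RNA and less of it per cell cannot be told apart.

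Together the 150 RNAs took 0.617% to 0.684% of the counts of a library, and mrp1 alone 31.1% to 35.8% of these. Mean CPM over the 12 libraries fell from 2156 for mrp1 and 677 for rrk1 to 109 for SPNCRNA.1263, an RNA of 5317 bases on chromosome III, and then to a median of 20.7. Only 3 members were above 100 CPM, 30 lay between 30 and 100, and 117 were below 30. The limit of the choice fell in a dense part of the ranking, with SPNCRNA.1568 at 13.12 CPM the last inside and SPNCRNA.655 at 13.07 the first outside. The lowest count of any member in any library was 241, and all 150 passed the filter on low counts. Counting error, taken as Poisson error of the mean count, had a median of 0.05 on the log2 scale over the members and was 0.09 at 241 counts.

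**Figure D1:**
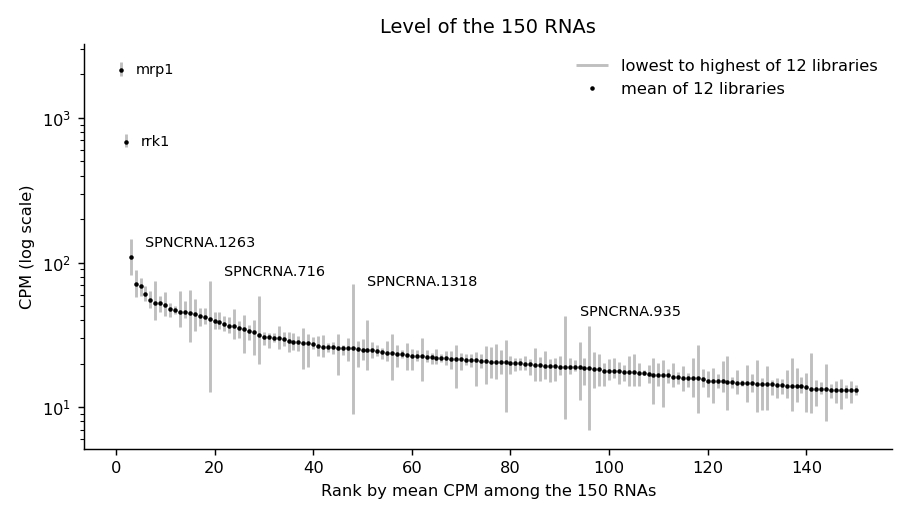
CPM of the 150 RNAs on a log scale against their rank by mean CPM, with a point for the mean of 12 libraries and a bar from the lowest to the highest library. mrp1 and rrk1 stand above the rest, most bars are short, and SPNCRNA.716, SPNCRNA.1318 and SPNCRNA.935 have long ones.

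Per length the picture differed. CPM per kilobase of exon, a level per length, had a median of 10.3 over the members, from 3.06 for SPNCRNA.992 to 5405 for mrp1, against a median of 39.6 over 5109 coding genes. On that scale rrk1 followed with 758, snR191 with 276, snoR61 with 225, sno530 with 201 and SPNCRNA.498 with 167, so the small nucleolar RNAs stood far above the antisense RNAs that have similar CPM. Ranking by the level per length would have kept 93 of the 150. The members were long, with a median exon length of 2196 bases against 976 for the other annotated SPNCRNA genes, and a ranking by CPM favours long RNAs. Of the 148, 147 had a single exon.

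**Figure D2:**
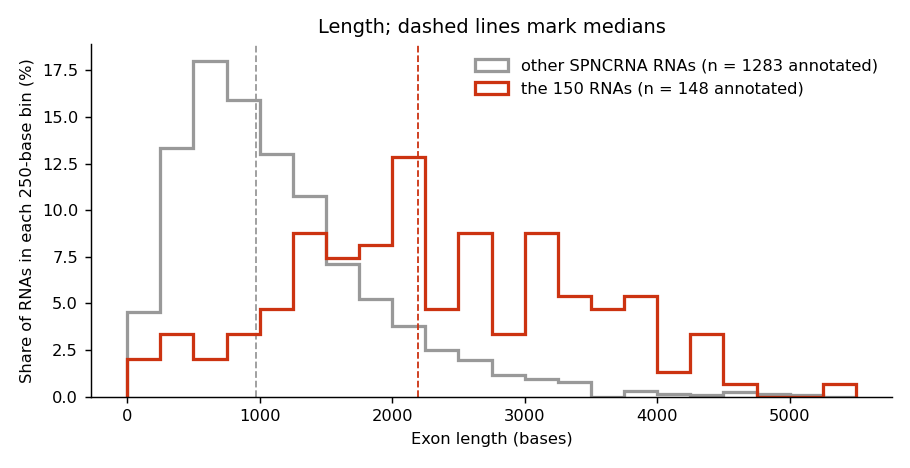
Share of RNAs in each 250-base bin of exon length, for the 148 annotated members and for 1283 other SPNCRNA genes, with dashed lines at the medians of 2196 and 976 bases. The members reach from 100 to 5317 bases and lie to the right of the other RNAs.

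Most members lay across a gene on the opposite strand. In the annotation, 86.5% of the 148 overlapped a counted gene on the other strand, against 71.1% of the other SPNCRNA genes, and 112 (75.7%) overlapped a coding gene there, against 56.7%. Only 17 members overlapped neither an opposite-strand gene nor a coding gene on their own strand. Longer RNAs meet more neighbours, and length was not removed from these shares. The annotation called 23 members (15.5%) possible alternative UTRs of a neighbour, against 13.4% of the other SPNCRNA genes. Members lay on all 3 nuclear chromosomes, with 64 on chromosome I, 56 on II and 28 on III.

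The coding partners were low genes. The partner of each RNA is taken as the opposite-strand coding gene that shares most of its exon bases, and the 112 partners had a median of 17.1 CPM per kilobase, against 34.5 for those of the other SPNCRNA genes. Of the partners, 18 (16.1%) were named for meiosis, sporulation or mating in their symbol or product, against 6.74% for the other SPNCRNA genes, with the words chosen after the partners had been seen. They include *spo4*, a kinase of the second meiotic division, *dmc1*, the meiotic recombinase, *hop1*, a protein of the meiotic chromosome axis, *mcp3*, *mcp4*, *meu14*, a sporulation protein, *fus1*, the formin of cell fusion, and *mfm3*, which encodes M-factor pheromone. SPNCRNA.1644, at chrII:3826723-3829397 on the minus strand, had 24309 counts over the 12 libraries and *spo4* beneath it had 89. SPNCRNA.904 had 12241 counts and *dmc1* had 449. SPNCRNA.1602 had 18529 counts and *hop1* had 1634. In 14 of these 18 pairs, and in 43 of all 112, the antisense RNA had more counts than its partner, which the choice of abundant RNAs favours.

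**Figure D3:**
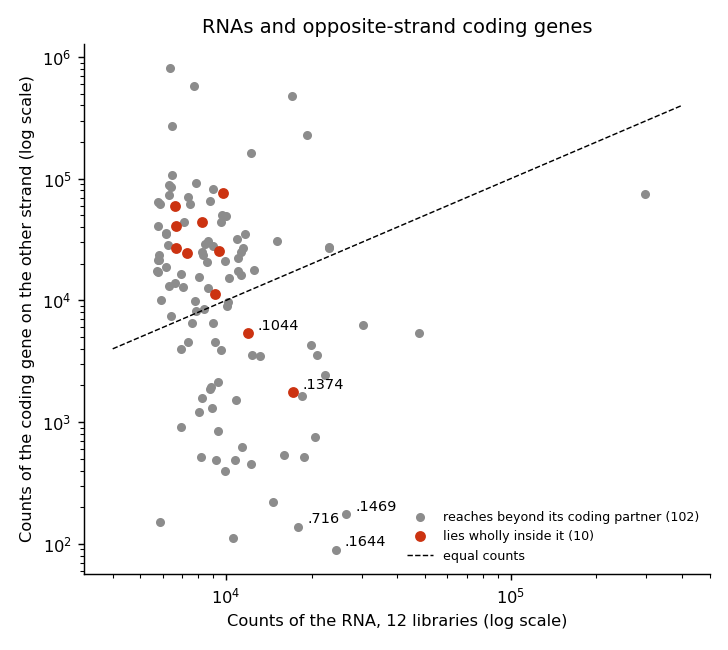
Counts over the 12 libraries, on log scales, of 112 RNAs (horizontal) and of the coding gene each overlaps on the other strand (vertical), with a dashed line at equal counts. The 43 points below the line have more antisense than sense counts, and SPNCRNA.1374 and SPNCRNA.1044, which lie wholly inside *cta3* and *mcp3*, are among them.

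How strand entered the counting is not stated, and enclosed RNAs bear on it. Of the 10 members that lay wholly inside their coding partner, SPNCRNA.1374 had 17255 counts where *cta3*, a calcium pump gene, had 1761, and SPNCRNA.1044 had 11953 where *mcp3* had 5351. With these gene models as the exons counted, and reads shared between genes kept, a count that ignored strand could not give such values. Neither condition is known, because the counting tool and its annotation are not stated. The remaining 8 of the 10 had fewer counts than their partners. For members that share exon bases with a gene on their own strand, reads of the shared stretch cannot be told apart. Overlap was taken with the whole span of the neighbour, introns included. By that measure 19 members overlapped a coding gene on their strand. Among them, SPNCRNA.1115 shares 391 bases with SPCC1235.01, SPNCRNA.995 shares 31 with SPAC27D7.11c and SPNCRNA.688 shares 67 with *ptc3*. snR191 lies whole within the span of *nog2*, and whether it falls in an intron there was not examined.

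Most members varied little within strains, though more than the genes they are set beside here. The SD of log2 CPM within strains had a median of 0.10 over the 150, against 0.07 over the 4866 genes with a mean count of at least 400 in the table, and the SD over all 12 libraries a median of 0.14. Those genes were not matched to the members in level, and the median counting error of the members was 0.05. For 9 members, SPNCRNA.1532 and SPNCRNA.1138 among them, the SD within strains was no larger than counting error. SPNCRNA.1532 was the steadiest, between 16.6 and 18.05 CPM, followed by SPNCRNA.1138, SPNCRNA.1097, SPNCRNA.1226 and SPNCRNA.636, with SDs from 0.04 to 0.06 among the 5. The most variable were SPNCRNA.1318, which spanned 7.90-fold over the 12 libraries with an SD of 0.96, SPNCRNA.716 (5.93-fold), SPNCRNA.322 (5.23-fold), SPNCRNA.935 (5.17-fold) and SPNCRNA.995 (2.94-fold). SPNCRNA.322, at chrII:674049-676227, overlaps no counted coding gene on the other strand. SPNCRNA.716, at chrI:1146598-1148060, covers SPAC56F8.12, which had 138 counts over all libraries where the RNA had 17976. These 2 RNAs had the most similar profiles, with a Pearson r of 0.98 over the 12 libraries, and SPNCRNA.1264 and SPNCRNA.1063 followed for both. SPNCRNA.1318, at chrII:154521-156642 on the strand opposite the maltase gene *mal1*, was most like SPNCRNA.812 (r = 0.95), SPNCRNA.995 (0.95) and rse1 (0.94). The 12 points of each correlation share strain differences, so these values describe the profiles only.

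**Figure D4:**
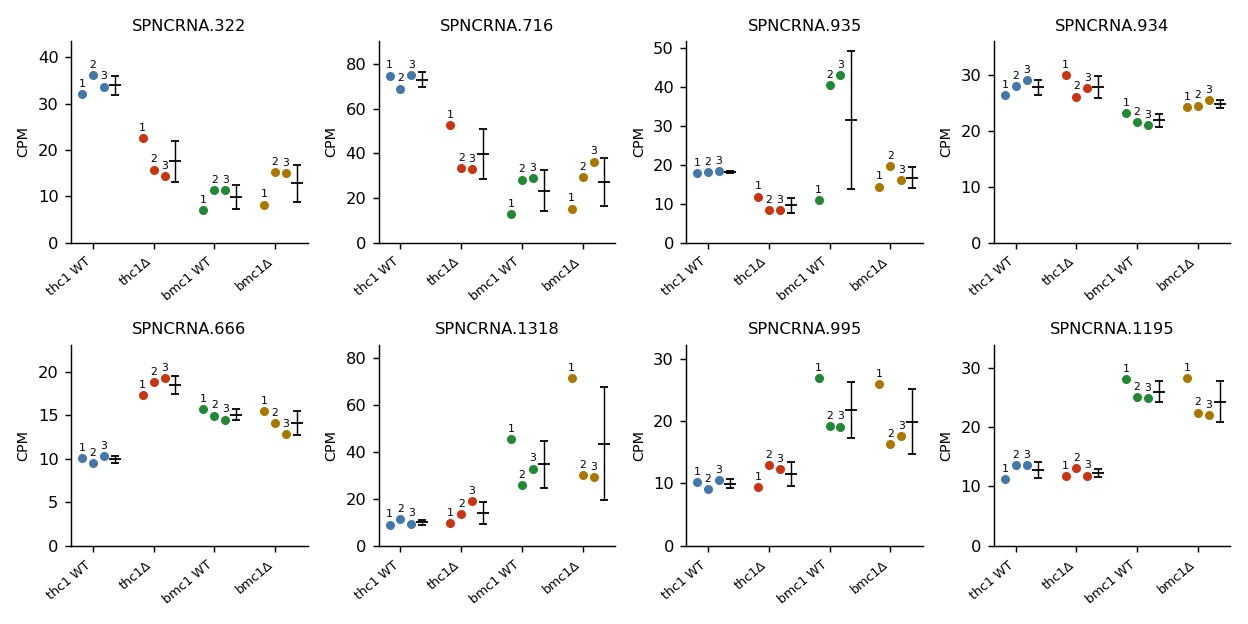
CPM of 8 RNAs in each library, with the replicate number above each point and the mean ± SD of 3 libraries beside them in black. SPNCRNA.322 and SPNCRNA.716 are highest in *thc1* WT, SPNCRNA.666 is lowest there, SPNCRNA.1318, SPNCRNA.995 and SPNCRNA.1195 are highest in the *bmc1* strains, and the *bmc1* WT libraries of SPNCRNA.935 fall apart while its antisense partner SPNCRNA.934 varies little.

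The first comparison asked what loss of Thc1 did to these RNAs. No member passed the criteria of the study, an adjusted p below 0.05 and a change of at least 2-fold, where 1.2% of the 6235 genes tested did so (edgeR quasi-likelihood test, Benjamini-Hochberg adjustment over all genes). With the adjusted p alone, 33 members passed, 13 of them higher (background 10%) and 20 lower (background 11.1%), and 52 (34.7%) had an unadjusted p below 0.05, beside 35.4% of all genes. The 33 are 22.0% of the members beside 21.1% of all genes, so the members kept by the rule changed about as often as other genes. Of the 7 left-out RNAs that would have ranked among them, 6 passed the 2-fold criterion, so the choice lowered these counts. The median log2 change was -0.04 over the members and 0.00 over all genes, and 120 of the 150 were within 20% of the wild type.

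SPNCRNA.322, SPNCRNA.716 and SPNCRNA.935 had the largest falls, just short of 2-fold. SPNCRNA.322 was at 32.0, 36.2 and 33.7 CPM in *thc1* WT and at 22.6, 15.8 and 14.3 in *thc1*Δ, a log2 change of -0.94 ± 0.15 (SE, adjusted p = 0.00447 by edgeR). SPNCRNA.716 was at 74.8, 69.0 and 75.2 CPM in *thc1* WT and at 52.6, 33.3 and 33.0 in *thc1*Δ, a change of -0.87 ± 0.16 (adjusted p = 0.00857). SPNCRNA.935 was at 17.8, 18.02 and 18.3 CPM in *thc1* WT and at 11.8, 8.33 and 8.38 in *thc1*Δ, a change of -0.91 ± 0.13 (adjusted p = 0.00237). In each of them the groups did not overlap (background 40.4% of all genes), and the first *thc1*Δ library lay nearest to the wild type. Without that library the changes were -1.17, -1.13 and -1.10, all 3 RNAs passed the 2-fold criterion and 62 members passed on the adjusted p. Without any of the *thc1* WT libraries 16 to 18 members passed, and without the third *thc1*Δ library 20. In the fit of all 12 libraries SPNCRNA.935 (adjusted p = 0.126) and SPNCRNA.716 (adjusted p = 0.0776) did not pass.

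SPNCRNA.935 fell while the RNA opposite it did not. It lies at chrI:3745778-3748833 and shares most of its length with SPNCRNA.934 on the minus strand, which was at 27.8 ± 1.36 CPM in *thc1* WT and at 27.9 ± 1.96 in *thc1*Δ (SD, n = 3 each, log2 change 0.02 ± 0.06, adjusted p = 0.873). Smaller falls were those of SPNCRNA.688 (-0.57 ± 0.07), which is antisense to *vps4*, SPNCRNA.703 (-0.50 ± 0.06), SPNCRNA.1306 (-0.47 ± 0.08) and SPNCRNA.712 (-0.46 ± 0.08). Their adjusted p by edgeR ran from 0.00122 to 0.00803, and their groups did not overlap (background 40.4%).

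SPNCRNA.666 rose most. This RNA, at chrI:604128-606113 and antisense over 1802 bases to *nab3*, an RNA-binding protein gene, was at 10.1, 9.50 and 10.3 CPM in *thc1* WT and at 17.3, 18.8 and 19.3 in *thc1*Δ, a log2 change of 0.90 ± 0.07 (adjusted p = 0.000138). *nab3* itself was at 29.3 to 29.5 CPM in *thc1* WT and 29.2 to 33.5 in *thc1*Δ (0.08, adjusted p = 0.336). SPNCRNA.1471, antisense to the F-box gene *pof9*, rose by 0.69 ± 0.11, SPNCRNA.1428 by 0.55 ± 0.08 and SPNCRNA.605 by 0.51 ± 0.09, with adjusted p from 0.00276 to 0.00612. The gene opposite SPNCRNA.605, *hhy1*, was also higher, going from 1.22, 1.44 and 1.22 to 3.67, 7.12 and 6.66 CPM (log2 change 2.18, adjusted p = 0.00136). Within *thc1*Δ the first library had the highest SPNCRNA.605 (40.2, 31.5 and 32.5 CPM) and the lowest *hhy1*. Between the wild types they went opposite ways. There *hhy1* was higher in *bmc1* WT by 1.39, and SPNCRNA.605 was at 20.4 ± 1.52 CPM against 24.6 ± 0.212 in *thc1* WT. SPNCRNA.1115 rose by 0.68 ± 0.17 (adjusted p = 0.0269) with the same-strand gene SPCC1235.01 (0.62, adjusted p = 0.0327), and the first *thc1*Δ library was near wild type for both. SPNCRNA.1115 lost its call without any of 5 libraries, that first one being the exception. Of the 21 members that passed and have a tested coding partner, the partner passed in the same direction for 6, in the other direction for 3 and did not pass for 12.

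The named structural RNAs moved little. rrk1 was at 626, 637 and 630 CPM in *thc1* WT and at 729, 642 and 775 in *thc1*Δ (0.19 ± 0.06, adjusted p = 0.04999), at the edge of the threshold, and it did not pass in 9 of 13 alternatives. mrp1 was at 2006, 1948 and 2120 CPM against 2188, 2098 and 2422 (0.15 ± 0.05, adjusted p = 0.0794), and passed with DESeq2 (adjusted p = 0.0374) and without the first *thc1*Δ library (adjusted p = 0.0252). snoR61 rose by 0.22 ± 0.06 (adjusted p = 0.0328), a call lost without any of 4 libraries, while snR191, sno530 and the snoRNA precursors SPNCRNA.1483 and snoZ had adjusted p from 0.146 to 0.648. The candidate snoRNA SPNCRNA.498 had a larger change than snoR61, 0.29, and shares all its 100 bases with the span of the same-strand gene *ipa1* (0.14). nam1 had a change of -0.23 ± 0.07 (adjusted p = 0.0554) and rse1, annotated as a repressor of the mating regulator gene *ste11*, one of 0.09 ± 0.06 (adjusted p = 0.308). meu16, prl58, prl59 and ncRNA.1343 did not pass either, with changes from -0.13 to 0.10.

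**Figure D5:**
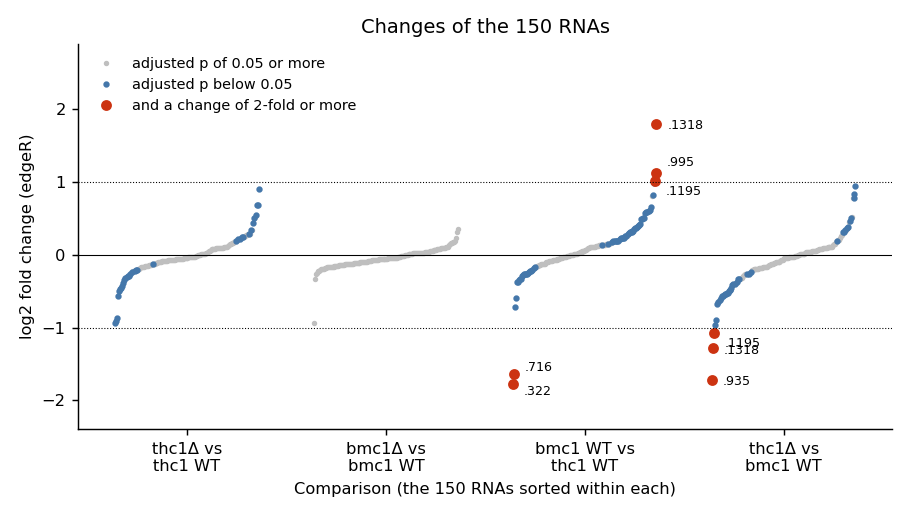
log2 fold change of each of the 150 RNAs in 4 comparisons, sorted within each, with dotted lines at a 2-fold change. Colour marks an adjusted p below 0.05, and red circles the RNAs that also changed at least 2-fold, of which there were 0, 0, 5 and 3 from left to right.

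Loss of Bmc1 was the second comparison. No member passed either criterion, and of 6232 genes tested 0% passed the 2-fold criterion and 0.0481% the adjusted p alone (0.016% higher and 0.0321% lower). At an unadjusted p below 0.05 there were 23 members (15.3%), beside 7.67% of all genes. The groups did not overlap for 23 members, 10 higher (background 10.2%) and 13 lower (background 4.08%). The lowest adjusted p among the members was 0.581, the median change was -0.05 and 145 of 150 members were within 20% of the wild type.

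The same-numbered libraries of this experiment moved together, so the fit with the replicate number as a block is given beside it. It passed 3 members on the adjusted p and 0 on the 2-fold criterion. These were SPNCRNA.1374, antisense to *cta3*, with a change of -0.25 (adjusted p = 0.0161), SPNCRNA.322 with 0.35 (adjusted p = 0.0445) and SPNCRNA.1643 with -0.32 (adjusted p = 0.0377). SPNCRNA.1374 was at 44.3, 45.6 and 42.9 CPM in *bmc1* WT and at 37.1, 39.2 and 36.4 in *bmc1*Δ, without overlap, and passed with DESeq2 too (adjusted p = 0.0353). SPNCRNA.1643 was at 26.8, 38.6 and 40.3 CPM against 23.6, 32.7 and 29.0, with the first library of each strain the lowest.

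SPNCRNA.935 gave the largest difference and the widest spread. It was at 11.0, 40.4 and 43.0 CPM in *bmc1* WT and at 14.4, 19.7 and 16.0 in *bmc1*Δ, a log2 change of -0.94 ± 0.46 (adjusted p = 0.676). The first *bmc1* WT library lay below all 3 of the deletion and the other 2 above them. Without it the change was -1.35 (adjusted p = 0.0382), and without the first library of both strains, an alternative chosen after seeing the data, -1.24 (adjusted p = 0.000741). SPNCRNA.934 on the opposite strand was at 23.2, 21.6 and 21.0 CPM in *bmc1* WT. SPNCRNA.1318 was at 45.5, 25.7 and 32.8 CPM in *bmc1* WT and at 71.3, 29.9 and 29.2 in *bmc1*Δ, a change of 0.31 ± 0.36 that became -0.23 without the first *bmc1*Δ library. The structural RNAs mrp1 (0.07 ± 0.08) and rrk1 (0.01 ± 0.07) had values close to 0.

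More members passed between the wild types than in either deletion. Set against *thc1* WT, the *bmc1* WT libraries had 5 members past the 2-fold criterion (background 2.81%), 3 of them higher (background 1.85%) and 2 lower (background 0.963%), and 66 members passed on the adjusted p, 44 higher (background 22.2%) and 22 lower (background 19.3%). That is 44.0% of the members beside 41.4% of all 6232 genes. Without the first *bmc1* WT library 74 members passed on the adjusted p and 4 the 2-fold criterion. Whether this difference is larger than the deletion effects was not tested, and strain background, mating type and experiment cannot be told apart in it.

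SPNCRNA.322 was at 6.92, 11.4 and 11.3 CPM in *bmc1* WT, 3.44-fold below *thc1* WT (log2 -1.78 ± 0.16, adjusted p = 7.94e-05). SPNCRNA.716 was at 12.7, 28.2 and 28.8 CPM, 3.13-fold lower (-1.64 ± 0.23, adjusted p = 0.000899). SPNCRNA.1318 was 3.48-fold higher (1.801 ± 0.19, adjusted p = 0.00018), having been at 9.02, 11.3 and 9.37 CPM in *thc1* WT. All 3 RNAs showed no overlap between the wild types (background 56.1% of all genes). Without the first *bmc1* WT library their differences were -1.58, -1.35 and 1.57 and still passed. The hexose transporter gene *ght4* and *mal1*, which lie opposite SPNCRNA.1318 or beside it, were higher in *bmc1* WT by 0.75 and 0.18.

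SPNCRNA.995 was at 26.9, 19.3 and 19.2 CPM in *bmc1* WT and at 10.2, 9.14 and 10.6 in *thc1* WT (1.12 ± 0.13, adjusted p = 0.000283), and the same-strand gene SPAC27D7.11c that it touches was higher by 0.95. SPNCRNA.1195, which lies wholly inside *tti1*, a gene for a cofactor of TOR-type kinases, was at 28.1, 25.0 and 24.9 CPM against 11.3, 13.5 and 13.6 (1.02 ± 0.08, adjusted p = 3.89e-05), while *tti1* differed by 0.05 (adjusted p = 0.269). Both fell below the 2-fold limit without the first *bmc1* WT library (0.96 and 0.97), as SPNCRNA.1195 did without the first *thc1* WT library (0.94), and kept an adjusted p below 0.05. SPNCRNA.935 passed only without that *bmc1* WT library (1.22, adjusted p = 3.6e-08, against 0.81, adjusted p = 0.13). SPNCRNA.1153 missed the limit with 0.99 ± 0.09 and reached it without any of 3 libraries. rse1 was higher in *bmc1* WT, at 72.9, 58.0 and 53.4 CPM against 39.9, 44.3 and 45.2 (0.50 ± 0.10, adjusted p = 0.00373). Of the 51 members that passed and have a tested partner, the partner passed in the same direction for 10, in the other for 13 and did not pass for 28.

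*thc1*Δ was also set against *bmc1* WT, a comparison that shares its libraries with those above. SPNCRNA.935 (-1.72 ± 0.45), SPNCRNA.1318 (-1.29 ± 0.26) and SPNCRNA.1195 (-1.07 ± 0.08) were lower by the 2-fold criterion (background 0.994%), with adjusted p of 0.0434, 0.0181 and 0.000312, and no member was higher (background 0.449%). The groups of SPNCRNA.935 overlapped, because its first *bmc1* WT library was among the *thc1*Δ values. With the replicate number as a block, or without the second *thc1*Δ library, SPNCRNA.1318 did not pass (adjusted p = 0.0608 and 0.0627), and SPNCRNA.935 did not pass without any of 4 libraries. On the adjusted p, 11 members were higher (background 5.28%) and 29 lower (background 8.26%), and in 66 the groups did not overlap (background 38.3%). Leaving out a library lowered the 40 that passed to as few as 15. SPNCRNA.322 was 0.84 ± 0.23 higher (adjusted p = 0.0493, lost when any of the 6 libraries was left out) and SPNCRNA.716 0.78 ± 0.31 (adjusted p = 0.127), so *thc1*Δ was below its own wild type and not below the other for these RNAs. SPNCRNA.666 was 0.31 ± 0.07 higher (adjusted p = 0.0265, lost without any of 5 libraries other than the first *thc1*Δ library, or with the block), SPNCRNA.1471 0.95 ± 0.11 higher (adjusted p = 0.00212) and SPNCRNA.605 0.78 ± 0.10 higher (adjusted p = 0.00381), so these 3 RNAs were higher in *thc1*Δ than in either wild type.

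The difference between the deletion effects was tested over all 12 libraries. SPNCRNA.666 passed the 2-fold criterion with a *thc1* effect above the *bmc1* effect by 1.01 ± 0.10 (adjusted p = 0.000235), and SPNCRNA.322 with one below it by -1.30 ± 0.35 (adjusted p = 0.0366), where the background was 0.621% higher and 0.366% lower. SPNCRNA.666 lay just above the limit and fell below it without any of 5 libraries (0.95 to 0.99), with an adjusted p of at most 0.00135 in each of these fits. The call of SPNCRNA.322 was lost without any of 9 libraries (adjusted p 0.0566 to 0.0911). On the adjusted p, 9 members passed in each direction (background 4.95% higher and 5.48% lower), which is 18 of the 150 beside 10.4% of 6279 genes. Leaving out a library moved the 18 to between 7, without the second *thc1* WT or second *bmc1* WT library, and 25, without the first *thc1*Δ library, and the replicate block gave 27. SPNCRNA.1471 (0.85 ± 0.15) and SPNCRNA.605 (0.63 ± 0.13) were among them, and SPNCRNA.716 (-1.06 ± 0.46, adjusted p = 0.167) was not, but passed with the replicate number as a block (adjusted p = 0.00413) and without the first *bmc1*Δ library (adjusted p = 0.042).

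The machinery known to act on such RNAs was followed in 6 lists of 64 genes, the nuclear exosome, its adaptors, cytoplasmic decay, RNA interference, transcription termination and the repression of antisense transcription. None of the 64 passed the 2-fold criterion in either deletion, between the wild types or in the difference between the deletion effects. In *thc1*Δ 8 were higher and 4 lower on the adjusted p (background 10% and 11.1%). Those higher were the exosome subunit gene *rrp42* (0.22), the exosome helicase gene *mtr4* (0.29) and SPBC19C2.05 (0.18). Also higher were the heterochromatin genes *chp1* (0.23) and *stc1* (0.37), the 3′ end cleavage genes *ysh1* (0.14) and *ppn1* (0.14), and the remodeller gene *hrp3* (0.15). Those lower were *iss10* (-0.14), *dcr1* (-0.12), *rdp1* (-0.13) and *cid12* (-0.14), of which the last 3 act in RNA interference. SPBC19C2.05 entered the cytoplasmic decay list through the name *pat1* alone, and whether it acts in RNA decay was not checked. The counts given here include it, so it should not be read as a gene of the machinery. In *bmc1*Δ 0 of the 64 passed. Between the wild types 13 were higher in *bmc1* WT (20.3%, background 22.2%) and 9 lower (14.1%, background 19.3%). Apart from the unchecked SPBC19C2.05 (0.84), *stc1* was the furthest apart (0.57), and 4 of 12 exosome genes were lower.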

How the data were processed

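Total RNA had been depleted of ribosomal RNA, made into stranded libraries, sequenced from a single end and aligned by the authors to ASM294v2. The submitters' processing notes name STAR 2.5.2b and DESeq2 1.22.2, and no source used here gives the counting tool, its annotation or its strand setting. The deposited file holds raw counts per gene, and no column in it was left out. Identifiers were matched to the RefSeq annotation of ASM294v3 (6846 by locus tag, 15 by synonym, 143 not matched), which gave all coordinates, lengths and sequences.

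The members, the gene lists and the motifs were chosen with earlier results of these data known. Counts were fitted over all genes with edgeR 4.0.16 (R 4.3.3, TMM scaling, filterByExpr with a minimum count of 10, quasi-likelihood test), adjusted by Benjamini-Hochberg over all genes tested, in 3 against 3 libraries, or in all 12 for the difference between deletion effects. CPM are untransformed counts over library totals, and log2 CPM carry a pseudocount of 0.5. The fit was tested on simulated data. Libraries of a strain differed by more than sampling noise in every pair.

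Genes were named by a rule: the 15 highest members and those at the limit, members with a gene name, called members without overlap, the 5 most and 5 least variable, their partners, left-out RNAs and machinery genes that passed. Other RNAs named (such as SPNCRNA.688, SPNCRNA.934, SPNCRNA.1236 and SPNCRNA.1471) were chosen after their values were seen. Replicate numbers in the labels paired the *bmc1* libraries, whose same-numbered deviations correlated at 0.605, 0.450 and 0.374 over 5823 genes, and not the *thc1* libraries (0.071, -0.041 and -0.037). Alternatives were DESeq2 1.42.0, other scalings, filters and member choices, a replicate block, a fit of all 12 libraries and leaving out each library.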

Additional observations from a re-analysis of the deposited data

Results flagged for a closer look

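The *thc1* and *bmc1* deletion effects differed by the test of the difference itself for SPNCRNA.666, where the *thc1* effect was above the *bmc1* effect by 1.01 on the log2 scale. They also differed for SPNCRNA.322, with a difference of -1.30. With 3 libraries a strain, no search for a single outlying library was made.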

How the results depend on the processing

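Among the 150 RNAs, 0 passed the 2-fold criterion in *thc1*Δ with the settings that kept all libraries and the same members, and 0 to 3 with a library left out, the 3 arising without the first *thc1*Δ library. The replicate block gave 0 there too. In *bmc1*Δ the range was 0 to 1, the 1 being SPNCRNA.935 without the first *bmc1* WT library, and 1 without the first library of both strains. Between the wild types it was 4 to 6, for the difference between the effects 0 to 3, and for *thc1*Δ against *bmc1* WT 2 to 3, where the replicate block left 1. The block gave 5 between the wild types and 3 for the difference. Without a fold limit the counts were 33, 66, 18 and 40 for *thc1*, the wild types, the difference and *thc1*Δ against *bmc1* WT. With the left-out RNAs put back, chosen after seeing the data, they were 6, 8, 5 and 7. With members chosen per kilobase, which kept 93 of the 150, they were 8 for the wild types, 1 for the difference and 6 for *thc1*Δ against *bmc1* WT. Library totals alone gave 1 for the difference.

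Of 694 refits of 51 single values, 618 kept direction and side of the adjusted p threshold, 61 lost it, 14 gained it and 1 turned, SPNCRNA.1318 in *bmc1*Δ (-0.23 without the first *bmc1*Δ library, 0.54 without the first *bmc1* WT library). By the 2-fold criterion 25 refits of 10 passing values lost the call and 12 refits of the others gained it. SPNCRNA.322 in the difference lost its call without any of 9 libraries, with adjusted p between 0.0566 and 0.0911. On the gene's strand only, TATAAA was in 45 and TGACGT in 9 member promoters. Ranking by TMM-scaled CPM kept 150 of 150. The cause of these shifts was not tested. For 9 members the spread was within counting error.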
